A study of Mus musculus with 3 samples.

Results

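The genes described here are 8 feedback genes of the ERK pathway: the phosphatases Dusp6, Dusp5 and Dusp4, the Sprouty genes Spry1 and Spry2, the Sprouty-related genes Spred1 and Spred2, and the ETS transcription factor gene Etv5. They are 8 of the 19059 genes in the deposited count matrices, and all 8 were present. They were chosen by name because Dusp6 was lower in monocytes of the Pex2 knockout, so the Dusp6 values in monocytes describe the choice and support nothing.

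The ERK kinases are the last of a cascade that runs from growth factor receptors through adaptors, Ras, Raf and MEK to the nucleus. Active ERK induces genes whose products act back on the cascade, and for this reason their transcripts are widely used as a readout of recent ERK output. Dusp6 encodes a cytoplasmic phosphatase that removes the activating phosphates from ERK. Dusp5 encodes a nuclear phosphatase for ERK, and Dusp4 a nuclear phosphatase that also acts on JNK and p38. Sprouty proteins restrain signalling between the receptor and Raf, Spred proteins bring the Ras inactivator neurofibromin to the membrane, and Etv5 is a transcription factor that ERK signalling induces and is not itself an inhibitor. In monocytes and macrophages the pathway is driven by the receptors for CSF1, GM-CSF and interleukin 3.

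Single fixed cells of mouse liver were profiled with gene-specific RNA probes at postnatal day 0, after viable cells with the leukocyte surface protein CD45 had been sorted. The groups were Pex2 wild type (pex2+/+, WT), heterozygous (pex2-/+, Het) and null (pex2-/-, KO). Pex2 encodes a membrane protein that peroxisomes need for the import of their enzymes. The labels name no treatment and no restriction of the allele to a cell type. The strain was not given in the sources used here, nor was the number of animals behind a library. There was 1 library per genotype. Every difference below therefore lies between single libraries and was not tested, and the difference between the libraries labelled Het and WT is the only gauge of how far libraries differ without loss of both alleles.

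The libraries held 9600 (labelled WT), 8000 (labelled Het) and 8245 (KO) barcodes with 96629431, 144589956 and 186295183 UMIs, the molecular identifiers that count captured transcripts. No full barcode was shared between libraries, although 961 to 1184 barcodes of each pair shared their first bases. Levels are given in CPM, a gene's UMIs scaled to a total of 1000000 UMIs of the library or cell class, always listed for labelled WT first, labelled Het second and KO last, with exact 95% Poisson intervals where shown. All intervals cover counting error only. Pex2 had 2283, 7704 and 2 UMIs (23.6, 53.3 and 0.0107 CPM), so the KO label held, but the cells labelled Het held more Pex2 than those labelled WT, against what the genotypes would give. Both control libraries are called by their labels for that reason. Of the monocyte-like cells, 43 cells of the library labelled Het clustered with KO cells and had 2.64 CPM of Pex2, against 64.6 CPM in the other large cluster of that library's monocyte-like cells. They were kept, and values without them are given below.

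Cells were clustered without the 8 genes and named from marker lists. Monocyte-like cells numbered 741, 710 and 1192, with median depths of 13705, 22589 and 26131.5 UMIs per cell. Their summed monocyte markers (9 genes) stood at 4521, 4999 and 4917 CPM. Within the list, 4 markers were lower in KO than in both other libraries, among them Klf4, a transcription factor of monocytes, which is named here after its values were seen (573, 420 and 246 CPM). Neutrophil markers were also present in these cells, at a summed 28432, 28934 and 46448 CPM over 12 genes, of which 5 were lower in KO and 5 higher. Granulocyte precursor markers summed to 14269, 13686 and 8206 CPM over 8 genes, of which 4 were lower and 1 higher. None of these 20 markers was at 0 in any library. Macrophage markers summed to 232, 216 and 192 CPM over 13 genes. The part of these markers in the results below was not tested. Besides the monocyte-like class, 6 classes held at least 50 cells in each library: neutrophil-like, granulocyte precursor-like, macrophage-like, B-lineage-like, basophil and mast-like, and erythroid-like cells.

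Each gene lies on a chromosome of its own (GRCm38.p6): Dusp6 on chromosome 10 (99263231 to 99267489), Dusp5 on 19 (53529145 to 53541809), Dusp4 on 8 (34807610 to 34819894), Spry1 on 3 (37639947 to 37644599), Spry2 on 14 (105891947 to 105896819), Spred1 on 2 (117121071 to 117182279), Spred2 on 11 (19924442 to 20024026) and Etv5 on 16 (22381313 to 22439570). RefSeq promoters of this build, 250 bases before to 50 after the start of the gene, were matched for 7 of the 8 genes, with both a first and another start for Etv5. Those of Dusp6 and Dusp5, which were lower together in KO monocyte-like cells, and of Spry2, which was not, are shown so that their ETS cores can be compared, each 5′ to 3′ on the strand of the gene. Capitals mark the ETS core GGAA on either strand (TTCC when it lies on the other strand). The windows are chr10:99262981-99263280 (plus strand), chr19:53528895-53529194 (plus strand) and chr14:105896770-105897069 (minus strand).
Dusp6: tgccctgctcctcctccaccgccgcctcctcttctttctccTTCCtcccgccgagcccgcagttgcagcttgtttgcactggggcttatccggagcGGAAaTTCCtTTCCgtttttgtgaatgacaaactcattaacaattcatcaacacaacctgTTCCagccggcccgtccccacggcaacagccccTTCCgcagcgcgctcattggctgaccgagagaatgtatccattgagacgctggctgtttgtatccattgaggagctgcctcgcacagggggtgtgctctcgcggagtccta
Dusp5: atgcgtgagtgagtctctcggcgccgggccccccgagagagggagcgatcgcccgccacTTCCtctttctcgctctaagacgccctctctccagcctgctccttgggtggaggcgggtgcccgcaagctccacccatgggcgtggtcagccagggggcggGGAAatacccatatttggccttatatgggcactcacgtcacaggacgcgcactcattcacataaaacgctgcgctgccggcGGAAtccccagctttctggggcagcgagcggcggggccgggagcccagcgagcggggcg
Spry2: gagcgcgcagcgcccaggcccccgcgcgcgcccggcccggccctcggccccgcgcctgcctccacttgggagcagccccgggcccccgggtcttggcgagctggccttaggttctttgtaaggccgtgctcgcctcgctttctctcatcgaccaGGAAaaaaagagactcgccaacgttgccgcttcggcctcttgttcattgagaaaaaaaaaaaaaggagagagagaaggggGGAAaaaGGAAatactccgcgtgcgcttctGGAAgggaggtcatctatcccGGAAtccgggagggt
The core GGAA occurred 6 times in the Dusp6 window, 3 times in that of Dusp5 and 5 times in that of Spry2. Spry1 held 1 core, Spred1 5, Spred2 7, and the Etv5 windows 0 and 6. Such a short core is common: 96.0% of 32851 promoter windows of this length hold at least 1. The longer form CCGGAA, which contains the core, was found only in the Spry2 window among the 7 genes, against 14.9% of all windows. A CArG box, the site of serum response factor, was searched for after the sequences had been seen. It occurred 2 times in the Dusp5 window and in no other window of these genes, against 1.63% of all windows. The AP-1 motif TGANTCA (7.81% of windows), the CRE motif TGACGTCA (1.79%), the E-box CACGTG (7.15%) and TATAAA (13.6%) were absent from all 8 windows, and both strands were read. The GC box GGGCGG, also read on both strands, was held by 35.7% of all windows. It occurred 1 time each in Dusp5, Spry1 and Spred2 and 3 times each in Spred1 and the first Etv5 window. The Dusp6, Spry2 and other Etv5 windows held none. A match of letters is a description and not a bound site.

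In monocyte-like cells 4 of the 8 genes were lower in KO than in both other libraries: Dusp6, Dusp5, Etv5 and Spred2. A gene was called lower when KO lay at least 1.5-fold below each of the other libraries with both 95% intervals excluding 1, among genes whose mean over the libraries reached 10 CPM and whose sum reached 30 UMIs. Of the 8 genes 5 passed this level filter. A gene under 10 CPM in KO can pass only through the control libraries, which favours a call as lower. Among the 4 genes called this was so for Dusp5 (6.73 CPM in KO) and Etv5 (2.98 CPM in KO). The same holds for each gene named below as lower with a KO level under 10 CPM. Over all 8560 genes that passed the filter, 10.1% were called lower and 5.33% higher. Because the genes were chosen from this contrast, nothing is read from the count. The split of calls moved with scaling: under TMM scaling, which raised the median log2 ratio of all genes from -0.05 to 0.08 against labelled WT and from -0.03 to 0.09 against labelled Het, 7.39% of genes were called lower and 8.33% higher. The same 4 genes were called under TMM and under median-of-ratios scaling.

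Dusp6, the cytoplasmic ERK phosphatase, stood at 366 CPM (355 to 377, from 4250 UMIs), 373 CPM (364 to 382, 6398 UMIs) and 51.5 CPM (49.1 to 54.0, 1730 UMIs). The KO library was thus low and the control libraries could not be told apart by counting error. The level in KO was 7.10-fold below labelled WT (95% interval 6.72 to 7.52), and against labelled Het it was 7.24-fold lower (6.86 to 7.64), while labelled Het over labelled WT was 1.02 (0.980 to 1.06). Dusp6 UMIs were found in 88.4%, 91.1% and 47.6% of the cells. After every cell had been thinned to 3000 UMIs these shares were 55.3% (exact interval 51.6 to 59.0), 59.2% (55.4 to 62.8) and 15% (13 to 17.2). Fewer KO cells thus held a Dusp6 UMI at equal depth. The lowest thinned shares were those of granulocyte precursor-like cells, at 8.24%, 10.0% and 2.14% with median depths of 19097, 31869 and 43585.5 UMIs, so Dusp6 in KO monocyte-like cells lay above that level.

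Dusp5, the nuclear ERK phosphatase, stood at 48.5, 36.9 and 6.73 CPM (563, 633 and 226 UMIs). Its level in KO was 7.2-fold below labelled WT (6.16 to 8.44) and 5.48-fold below the level labelled Het (4.70 to 6.41). The control libraries differed too, with labelled Het at 0.761 of labelled WT (0.678 to 0.854), a far smaller difference than that of KO. Dusp4, the nuclear phosphatase of broader range, was hardly captured, with 1, 34 and 0 UMIs. The 0 in KO allows a level of up to 0.0894 CPM (3 UMIs), and Dusp4 did not pass the level filter.

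The Sprouty genes were scarce in these cells and neither passed the filter. Spry1, which acts on signalling near the receptor, had 49, 75 and 16 UMIs (4.22, 4.37 and 0.477 CPM). KO was lower here, by 8.86-fold against labelled WT (4.95 to 16.7) and 9.18-fold against labelled Het (5.30 to 16.9). Spry2, its close relative, had 88, 131 and 317 UMIs (7.58, 7.64 and 9.44 CPM). Its KO level was not lower than the others: the ratio was 1.25 over labelled WT (0.981 to 1.60) and 1.24 over labelled Het (1.01 to 1.53).

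The Spred genes parted. Spred2, which recruits neurofibromin to Ras, stood at 30.1, 32.5 and 13.9 CPM, and its level in KO was 2.16-fold below labelled WT (1.88 to 2.49) and 2.34-fold below the level labelled Het (2.06 to 2.65). Spred1, with the same role, stood at 58.8, 81.8 and 53.7 CPM. Its KO level was close to labelled WT, at a ratio of 0.913 (0.836 to 0.998), and below labelled Het at 0.657 (0.612 to 0.705), while labelled Het was 1.39 times labelled WT (1.27 to 1.53), so Spred1 was not called. Etv5, the induced transcription factor, stood at 16.3, 17.5 and 2.98 CPM (189, 300 and 100 UMIs). Its KO level was 5.47-fold below labelled WT (4.27 to 7.04) and 5.87-fold below the level labelled Het (4.67 to 7.44), and the control libraries overlapped.

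**Figure D1:**
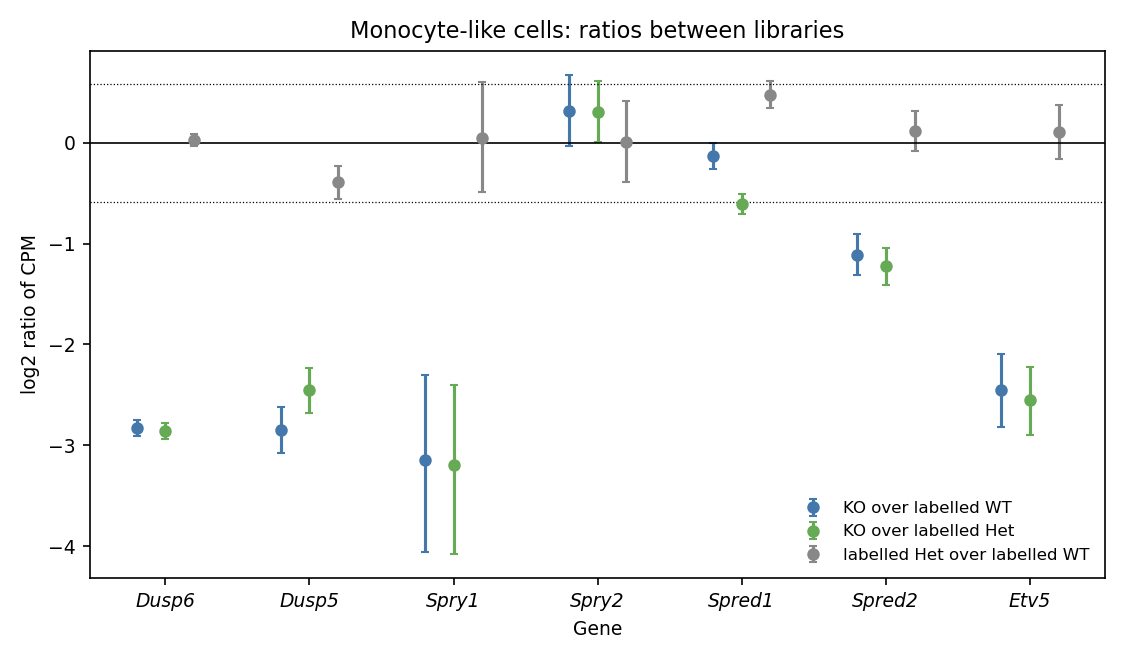
Log2 ratios of CPM in monocyte-like cells for 7 of the genes: KO over labelled WT (blue), KO over labelled Het (green) and labelled Het over labelled WT (grey). Points are ratios, bars are exact 95% intervals that cover counting error only, dotted lines mark 1.5-fold, and Dusp4 is left out for its few UMIs. Dusp6 lies at -2.83 and -2.86 in KO and Dusp5 at -2.85 and -2.45, while Spry2 lies above 0.

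Most monocyte-like cells of KO and of the control libraries lay in different clusters. Cluster 5 held 4, 43 and 1156 cells, cluster 11 held 526, 411 and 2, and cluster 15 held 211, 256 and 34. Clusters 5 and 11 were led by many of the same genes, with Fn1, Vcan, F13a1, Ms4a6c and Klf4 among the top 10 genes of both. Mitosis genes were high in both clusters, at a summed 4566 and 4083 CPM in the control cells of cluster 11 and 3969 CPM in the KO cells of cluster 5. They were low in cluster 15, at 189, 541 and 180 CPM. The cells of cluster 15 thus held few mitosis transcripts in all 3 libraries.

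In cluster 15, which held cells of all 3 libraries, only Dusp6 of the 8 genes was lower in KO, and Spred2 was higher. The KO cells there were few, and at the finer clustering (Leiden resolution 2.0) 33 of the 34 fell in a cluster with 598 KO cells and 6 of each control library, while 207 and 256 control cells stayed together with 1 KO cell. So this cluster was shared only at the coarser clustering, and the values within it rest on that choice. Dusp6 stood at 1094, 895 and 306 CPM, 3.58-fold below labelled WT (3.0 to 4.29) and 2.92-fold below the level labelled Het (2.46 to 3.50). This was the highest Dusp6 level of any cluster in the control libraries. Spred2 stood at 12.3, 19.8 and 38.3 CPM (17 UMIs in KO), 3.12 (1.56 to 6.15) and 1.93 (1.06 to 3.31) times the control levels. Dusp5, at 160, 98.7 and 115 CPM, was not called. Its KO level was below labelled WT, at a ratio of 0.715 (0.520 to 0.966), and overlapped labelled Het at 1.16 (0.849 to 1.56). Etv5, at 28.4, 31.8 and 45.0 CPM from 20 KO UMIs, did not differ beyond counting error. Its ratios were 1.58 (0.894 to 2.70) and 1.42 (0.834 to 2.29). In this cluster 9.31% of genes were called lower and 11.4% higher. Dusp5, Etv5 and Spred2 were thus called lower over the whole class and not within cluster 15.

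Between those clusters, Dusp6 stood at 233 and 247 CPM in the control cells of cluster 11 and at 48.0 CPM in the KO cells of cluster 5. Dusp5 stood at 28.1 and 20.7 against 5.29 CPM, and Etv5 at 14.1 and 14.3 against 2.39 CPM. Without cluster 15 the same 4 genes were called lower, among 10.8% of all genes. The 43 cells labelled Het in cluster 5 had Dusp6 at 143 CPM (122 to 167), between the KO cells of their cluster and the cells labelled Het of cluster 11. With the control cells of cluster 5 left out, the same 4 genes were called and the log2 ratio of Dusp6 against labelled Het was -2.92 in place of -2.86. With clusters 5 and 11 split by library, a difference in cell state and a difference in expression within a state cannot be told apart.

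**Figure D2:**
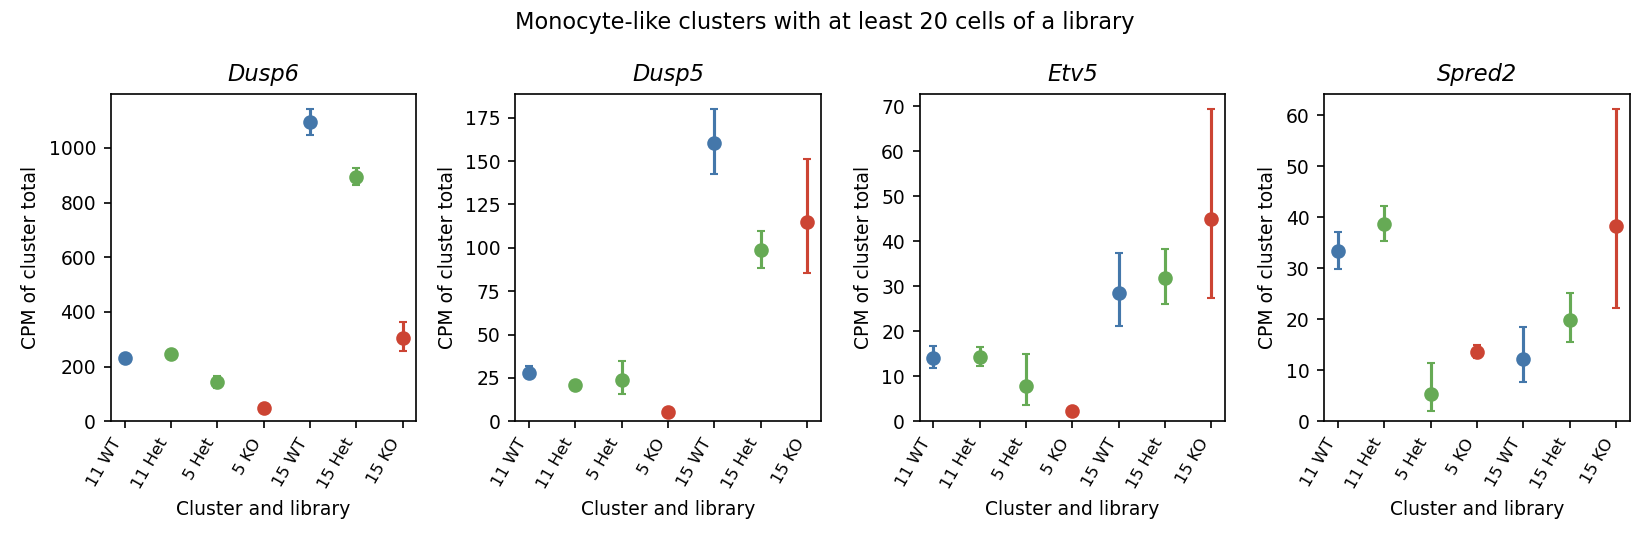
Levels of Dusp6, Dusp5, Etv5 and Spred2 (CPM) by library in the 3 monocyte-like clusters, for libraries with at least 20 cells in the cluster, with exact 95% Poisson intervals. Dusp6 in cluster 15 is lower in KO (306 CPM) than in the control libraries (1094 and 895 CPM), whereas Spred2 there is highest in KO (38.3 CPM).

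Dividing and other cells gave the same direction for Dusp6. Cells were called dividing with at least 3 UMIs of 23 mitosis genes after thinning, which took in 445, 389 and 746 cells. Of these cells 28, 30 and 32 held exactly 3 such UMIs, and 42, 42 and 72 cells just under the limit held 2. The other cells numbered 287, 309 and 432. Cluster 15, low in mitosis genes, held 211, 256 and 34 cells, so the other cells of KO lay mostly outside it. How many control cells of cluster 15 were among the others was not counted. The split was therefore not matched for cluster between libraries. In dividing cells Dusp6 stood at 236, 246 and 41.9 CPM, and in the other cells at 682, 631 and 84.6 CPM. Dusp6 was thus higher in the other cells than in dividing cells in every library, and lower in KO in both. Dusp5 behaved alike, at 27.2, 19.7 and 5.00 CPM in dividing and 99.1, 72.0 and 12.7 CPM in other cells. Etv5 stood at 14.7, 12.7 and 1.88 CPM in dividing and 20.2, 27.3 and 6.77 CPM in other cells.

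The rest of the pathway was examined in the same cells from lists by role. No gene of the kinase cascade was called in either direction, against 10.1% of all genes called lower and 5.33% higher. Of 13 cascade and scaffold genes, from Araf and Braf through Map2k1 to Mapk3, which encode Raf, MEK and ERK kinases, all passed the level filter, and their ratios ran from 0.748 to 1.51 against labelled WT and from 0.615 to 1.30 against labelled Het. Of 12 genes of the p38 and JNK branches none was called, nor was either of the kinases under ERK that passed, Mknk1 and Mknk2.

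Upstream, receptors were often lower. Of 13 myeloid growth factor receptor genes that passed, 6 were lower in KO and 1 was higher, against 10.1% and 5.33% of all genes. Under TMM or median-of-ratios scaling 4 were lower. The 4 with the largest differences were Kit, the stem cell factor receptor, at 22.5, 19.9 and 6.58 CPM, Csf2rb2, a signalling chain of the interleukin 3 receptor, at 102, 101 and 34.6, Axl, a receptor for Gas6, at 89.1, 82.5 and 32.4, and Il3ra, the other interleukin 3 chain, at 183, 138 and 76.0. Flt3, the receptor of progenitors and dendritic cells, stood at 7.06, 9.22 and 30.4 CPM and passed the level filter only through KO, so its call as higher was favoured by the filter. In cluster 15, 5 of 12 were lower, with Csf2rb2 (168, 166 and 85.5 CPM) and Il3ra (78.0, 97.5 and 9.0 CPM, from 4 UMIs in KO) among them and without Kit and Axl, and 2 were higher, Fgfr1 (6.13, 3.69 and 167 CPM) and Mertk (49, 120 and 414 CPM). Csf1r, the CSF1 receptor gene that was among the 6 lower over the class, was highest in KO there (926, 783 and 1283 CPM) without meeting the rule. Without cluster 15, 4 of 13 were lower, with the calls of Csf1r and Csf2rb lost, and 2 were higher, Flt3 and Mertk. The shares of all genes were then 10.8% and 5.96%.

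Between receptor and kinases the counts called lay near the shares of all genes, 10.1% lower and 5.33% higher. Of 12 adaptors and Ras exchange factors, Rasgrp4, a myeloid exchange factor for Ras, was lower at 98.1, 76.1 and 36.2 CPM, and Sos2, a widely expressed exchange factor, was higher at 47.0, 72.0 and 110 CPM. Rasgrp4 was also lower in cluster 15 (211, 132 and 51.8 CPM), where Sos2 was not called. Of 9 Ras and GTPase activator genes 1 was lower, Rasa2, which speeds the inactivation of Ras, at 23.8, 29.8 and 12.5 CPM. It was not called in cluster 15.

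Downstream, 2 of the 7 ERK-induced genes that passed were lower in KO, against 10.1% of all genes. Myc, which drives growth and division, stood at 214, 385 and 52.1 CPM, 4.11-fold below labelled WT and 7.38-fold below the level labelled Het. Ier3, an immediate early gene, stood at 29.0, 35.2 and 17.6 CPM. Without cluster 15 Ier3 was not called, and Myc and Ccnd1 of the same list were the 2 of 8 called lower. In cluster 15 none of 9 such genes was called, and Myc there stood at 59.6, 231 and 56.3 CPM, so its KO level was near that of labelled WT. Of 4 other MAP kinase phosphatase genes none was called, although under TMM scaling 2 were higher, Dusp1 (75.3, 204 and 288 CPM) and Dusp22 (48.0, 56.7 and 84.7 CPM). Both were also higher without cluster 15, and within cluster 15 Dusp1, a nuclear phosphatase of several MAP kinases, was higher at 331, 710 and 2988 CPM.

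Gene lists for other features of the cells were examined in the same way. Over the class, 10.1% of all genes were called lower and 5.33% higher. Of 10 genes induced by tissue dissociation and stress 5 were lower in KO. This list overlaps with that of ERK-induced genes, as Fos and Ier2 stand in both. Fosb and Jun, both AP-1 subunits, stood at 50.3, 20.8 and 0.536 CPM and at 104, 104 and 32.2 CPM. Atf3 stood at 22.4, 15.2 and 5.51 CPM and Junb at 166, 181 and 68.6 CPM. In cluster 15 Jun was instead higher in KO (171, 197 and 295 CPM) and Btg2 was the 1 of 12 called lower. Without cluster 15, 3 of 9 were lower, Fosb, Jun and Junb. Of 7 genes of monocyte maturation 4 were lower, with Ace (41.3, 24.4 and 2.44 CPM) and Treml4 (36.5, 30.6 and 7.0 CPM), markers of non-classical monocytes, as well as Ccr2 (733, 760 and 410 CPM), the receptor of classical monocytes, and the integrin gene Itgal (523, 455 and 298 CPM). These calls were lost without cluster 15, where none of the 5 maturation genes that passed was lower and Nr4a1 was higher, and within cluster 15 Ccr2 and Treml4 were lower while Ace and Itgal were not called. Cluster 15 made up 28.5%, 36.1% and 2.85% of the class. Genes named above only from cluster 15, from the class without it or from another scaling were picked after their values were seen. The part of handling and of maturation in the lower Dusp6 and Dusp5 was not tested. Of 23 mitosis genes none was lower and 1, Bub1, was higher (34.2, 38 and 62.0 CPM), with 3 higher under TMM scaling.

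**Figure D3:**
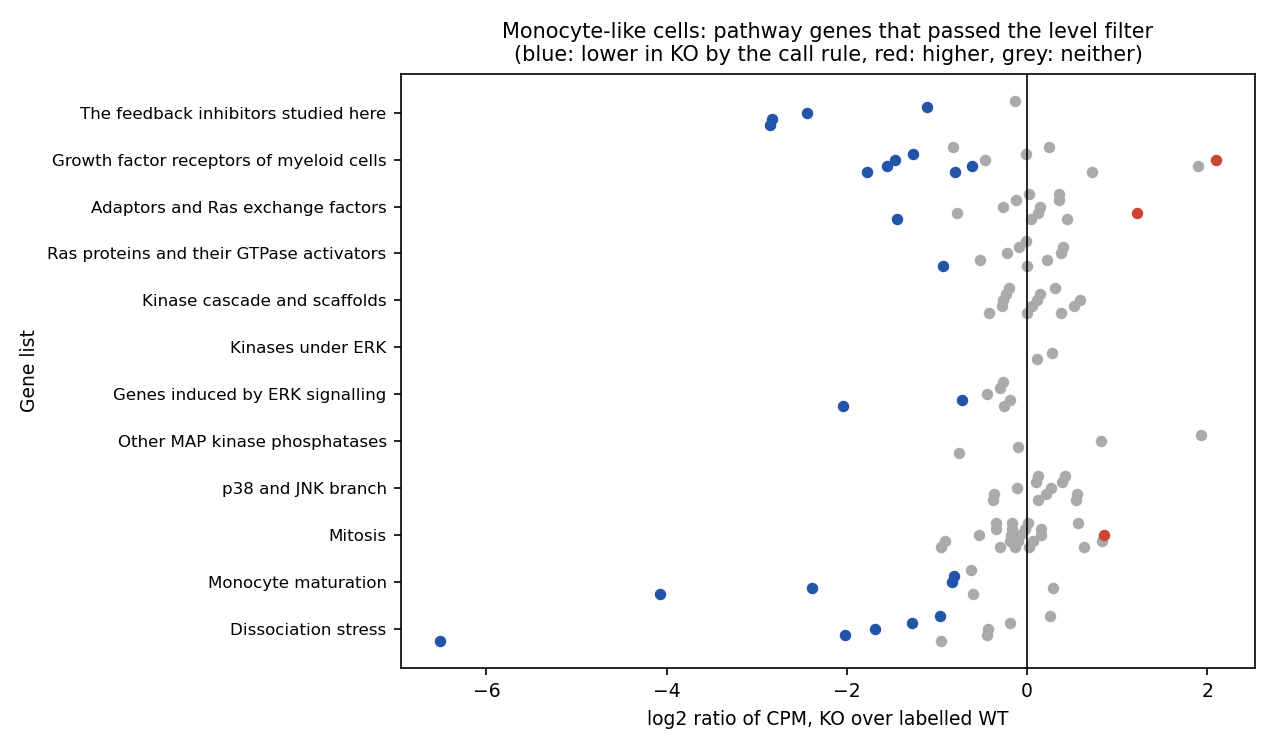
Log2 ratios of CPM of KO over labelled WT in monocyte-like cells for genes that passed the level filter, 1 point per gene, by list, with the 5 feedback genes that passed in the top row. Blue points were called lower in KO than both control libraries, red points higher and grey points neither. The kinase cascade row holds no coloured point, while 6 of 13 receptor points are blue and 1 is red.

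Across the other classes, Dusp6 was lower in KO in macrophage-like, granulocyte precursor-like, neutrophil-like and erythroid-like cells, and was not called in B-lineage-like or basophil and mast-like cells. In macrophage-like cells, resident phagocytes of the liver, Dusp6, Dusp4, Dusp5 and Spred1 were lower in KO, 4 of the 7 genes that passed, against 6.15% of all genes there. Labelled Het was itself called lower than labelled WT for 11.8% of genes in this class. Of 23 mitosis genes 20 were higher in labelled Het than in labelled WT, and of 10 genes of dissociation stress 7 were lower, and their part in the values of this class was not tested. Dusp5 had the largest difference, at 673 (616 to 733), 399 (365 to 435) and 77.0 CPM (65.1 to 90.5). Dusp6 stood at 486, 455 and 179 CPM, 2.71-fold below labelled WT (2.34 to 3.15) and 2.54-fold below the level labelled Het (2.22 to 2.91), and Spred1 at 275, 219 and 112 CPM. Dusp4, at its highest level of the 7 classes in the control libraries, had only 12, 16 and 7 UMIs (15.6, 12.5 and 3.64 CPM). Dusp4 passed the level filter only through the control libraries, so its call as lower was favoured by the filter.

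Etv5 in macrophage-like cells stood at 226, 158 and 119 CPM, lowest in KO, and was not called because KO was only 1.32-fold below labelled Het (1.09 to 1.61). Spred2 did not differ beyond counting error, at 36.4, 44.5 and 42.2 CPM, with KO at 1.16 times labelled WT (0.746 to 1.85) and 0.948 times labelled Het (0.667 to 1.35). Spry2, at 19.5, 14.8 and 7.81 CPM from 15, 19 and 15 UMIs, was not called, and was called lower under TMM and median-of-ratios scaling and at a finer clustering. Spry1 went the other way, with 1, 15 and 32 UMIs, and did not pass the filter. The cluster behind this class also had haemoglobin genes among its top 10 genes, and the part of red cells in or on these macrophages was not tested.

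In granulocyte precursor-like cells, which make the primary granules, Dusp6, Spred1 and Spred2 were lower in KO, 3 of the 4 genes that passed, against 13.5% of all genes. Dusp6 stood at 41.0, 36.4 and 9.69 CPM, 4.23-fold below labelled WT (3.48 to 5.16) and 3.75-fold below the level labelled Het (3.14 to 4.5). Spred2 stood at 23.8, 25.1 and 10.6 CPM and Spred1 at 16.9, 25.3 and 10.7 CPM. The call of Spred1 was lost under TMM and median-of-ratios scaling, which left Dusp6 and Spred2. Spry2 stood at 53.1, 42.4 and 51.1 CPM, with KO between the control libraries. This class was a single cluster with 355, 431 and 374 cells.

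In neutrophil-like cells, the largest class, both genes that passed were lower in KO, against 5.06% of all genes. Dusp6 stood at 74.8, 58.3 and 21 CPM, 3.55-fold below labelled WT (3.37 to 3.74) and 2.77-fold below the level labelled Het (2.63 to 2.92). Spred2 stood at 13.9, 12.7 and 7.74 CPM and passed the level filter only through the control libraries, so its call as lower was favoured. Etv5 missed the level filter and had a KO level well below the others, at 12.0, 14.5 and 3.28 CPM. Spry2, also under the filter, was highest in KO at 3.35, 5.36 and 9.86 CPM, 2.95 times labelled WT (2.51 to 3.48) and 1.84 times labelled Het (1.64 to 2.07). The neutrophil-like clusters each held nearly only KO or nearly only control cells. In the clusters with the highest Dusp6, cluster 14 of the control libraries and cluster 19 of KO, Dusp6 stood at 497 and 424 against 92.1 CPM, and Spry2 at 9.47 and 44.4 against 89.3 CPM. These clusters were picked for their Dusp6 level and hold different cells of control and KO, so the values are a description.

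In erythroid-like cells, the precursors of red cells, Dusp6 and Etv5 were lower in KO, 2 of the 6 genes that passed, against 10.1% of all genes. Dusp6 stood at 82.3, 47.3 and 23.8 CPM and Etv5 at 54.6, 50.0 and 22.9 CPM. The library labelled Het was itself at 0.575 of labelled WT for Dusp6 (0.469 to 0.708). Of 8 genes of dissociation stress that passed, 5 were lower in labelled Het than in labelled WT, against 7.71% of all genes, and 2 were lower in KO. Their part in these values was not tested. Spry1 had its highest levels here, at 26.4, 66.6 and 42.7 CPM, with KO between the control libraries. Spred2 overlapped in all libraries, at 91.3, 88.4 and 90.3 CPM, and Spred1, at 112, 120 and 90.0 CPM, was lowest in KO without meeting the rule.

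In basophil and mast-like cells, with 71, 73 and 57 cells, none of the 6 genes that passed was called, against 5.44% of all genes called lower. Dusp6 stood at 418, 240 and 213 CPM and Dusp5 at 166, 109 and 83.7 CPM. KO and labelled Het were both below labelled WT, and KO over labelled Het was 0.884 for Dusp6 (0.755 to 1.03). Of 9 genes of dissociation stress that passed, 8 were lower in labelled Het than in labelled WT, against 6.64% of all genes, and 5 were lower in KO. Of 23 mitosis genes 9 were lower in KO. The part of these genes in the values of this class was not tested. Spry2 had its highest levels here, at 264, 166 and 159 CPM, in the same order. Spred1 (67.6, 63.4 and 68.1 CPM), Spred2 (73.7, 73.6 and 72.2 CPM) and Etv5 (57.3, 55.4 and 44.3 CPM) had overlapping intervals in all 3 libraries.

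In B-lineage-like cells none of the 7 genes that passed was lower in KO, against 12.0% of all genes, and the Sprouty genes were higher, against 9.43% of all genes called higher. Spry2, which stood at 61.0, 63.9 and 133 CPM, was 2.17 times labelled WT (1.96 to 2.41) and 2.07 times labelled Het (1.88 to 2.29) in KO. Spry1 stood at 9.27, 6.38 and 24.6 CPM, 2.65 and 3.85 times the control levels, and passed the level filter only through KO, so its call was favoured by the filter. Both control libraries thus lay below KO. Under median-of-ratios scaling Etv5 was called higher as well. Dusp6 stood at 222, 192 and 264 CPM, Dusp5 at 201, 141 and 200 and Etv5 at 32.6, 31.4 and 47.7, and Spred1 (25.9, 20.9 and 21.1) and Spred2 (40.8, 42.7 and 44.7) were close between libraries. Of 23 mitosis genes 20 were lower in KO in this class, and the part of cell division in these values was not tested over the class.

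B-lineage-like cells of KO again lay partly in clusters of their own. Cluster 10, with 348, 270 and 443 cells, was shared by all libraries, and none of the 23 mitosis genes was lower there. Within it Spry2 stood at 26.8, 39.2 and 74.7 CPM, 2.79 times labelled WT (1.94 to 4.12) and 1.91 times labelled Het (1.40 to 2.63). Spry1 stood at 13.4, 9.26 and 26.2 CPM. The Sprouty genes were thus higher in KO in this cluster as well, where 5.60% of all genes were called higher. Dusp6 there stood at 412, 366 and 357 CPM, 0.868 of labelled WT (0.779 to 0.968) and 0.976 of labelled Het (0.873 to 1.09), so its KO level was not above the others. In cluster 7, whose mitosis genes summed to 10227, 11865 and 10428 CPM, Dusp6 stood at 135, 119 and 118 CPM. Cluster 22, with 0, 7 and 312 cells, had the highest Spry2 of the class (266 CPM) and Spry1 at 41.2 CPM.

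**Figure D4:**
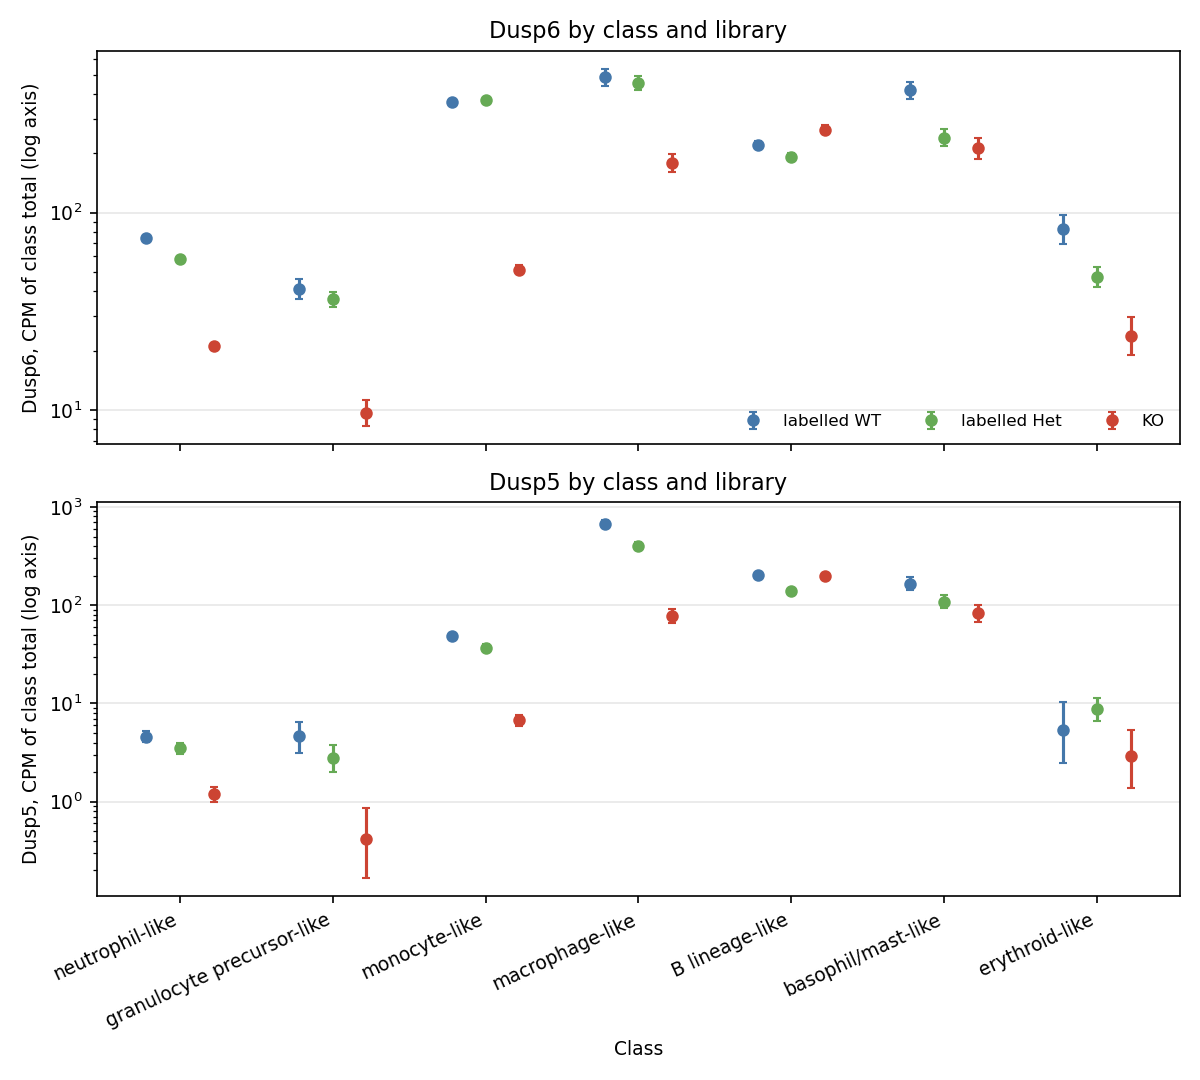
Levels of Dusp6 and Dusp5 (CPM, log axis) by library in the 7 cell classes, with exact 95% Poisson intervals. The Dusp6 points of KO lie below both control libraries in monocyte-like cells (51.5 against 366 and 373 CPM) and in macrophage-like cells (179 against 486 and 455 CPM), and above them in B-lineage-like cells (264 against 222 and 192 CPM).

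The order of the classes by Dusp6 differed in KO. In the library labelled WT, Dusp6 was highest in macrophage-like cells, then in basophil and mast-like, monocyte-like, B-lineage-like, erythroid-like, neutrophil-like and granulocyte precursor-like cells, where the first and the second did not differ beyond their intervals, nor did erythroid-like and neutrophil-like cells. In KO, B-lineage-like cells were highest, then basophil and mast-like and macrophage-like cells, which overlapped, and monocyte-like cells came after them at 51.5 CPM. Dusp5 was highest in macrophage-like cells of both control libraries and in B-lineage-like cells of KO (200 CPM, against 77.0 in macrophage-like cells). Spry2 was highest in basophil and mast-like cells of each library, overlapping with B-lineage-like cells in KO. Etv5 was highest in macrophage-like cells and Spry1 in erythroid-like cells of all 3 libraries. Spred2 was highest in erythroid-like cells, with overlap with basophil and mast-like cells in each library.

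**Figure D5:**
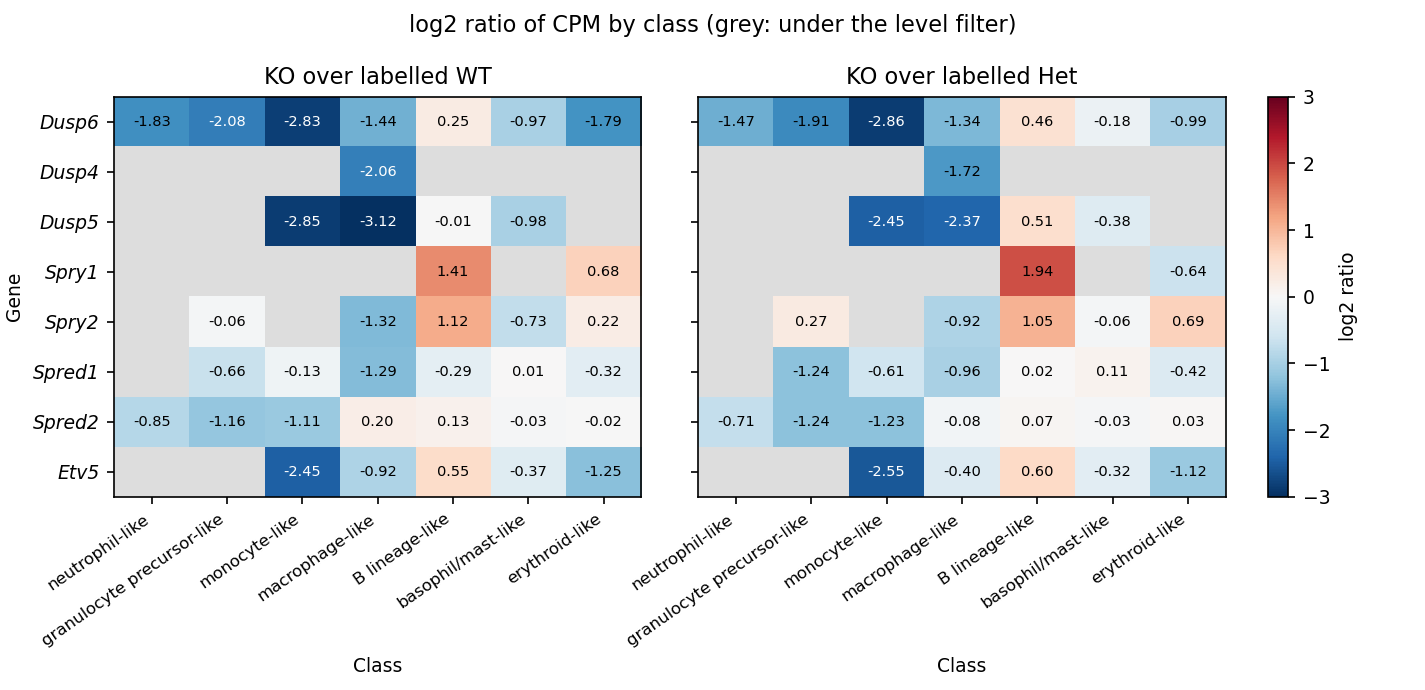
Heat maps of the log2 ratio of CPM for the 8 genes (rows) by cell class (columns), with KO over labelled WT on the left and KO over labelled Het on the right, and grey cells for genes under the level filter. Blue cells are lower and red cells higher in KO. Dusp6 in monocyte-like cells is at -2.83 and -2.86, and Spry2 in B-lineage-like cells at 1.12 and 1.05.

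Classes under the limit of 50 cells are given as values only. Stem and multipotent progenitor-like cells numbered 198, 222 and 39, and Dusp6 there stood at 228, 215 and 180 CPM, a small difference beside that of monocyte-like cells. Spry2 in these progenitors was highest in KO (53.0, 58.7 and 105 CPM) and Etv5 lowest (94.1, 123 and 64.4 CPM). In natural killer and innate lymphoid-like cells, with 17, 48 and 59 cells, Dusp6 overlapped at 192, 206 and 217 CPM. In plasmacytoid dendritic-like cells, with 99, 44 and 23 cells, Dusp6 stood at 214, 294 and 218 CPM and Dusp5 at 158, 89.2 and 19.5 CPM. Over all barcodes, doublets included, Dusp6, Dusp5, Spred2 and Etv5 were lower in KO, against 13.4% of all genes, with Dusp6 at 145, 125 and 40.2 CPM. That value also moves with the shares of the classes: monocyte-like cells made up 7.94%, 9.09% and 15% of the cells kept and B-lineage-like cells 20.2%, 16.1% and 11.2%.

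Genes whose levels followed these genes were sought over the 21 sums of 7 classes and 3 libraries, by Pearson correlation of log2(CPM + 10) among 8164 genes. The sums share libraries and classes and are not independent, so the correlations are descriptions. Dusp5 was the second of the genes most like Dusp6 (r = 0.89), beside Ttyh3, a membrane protein of the tweety family (0.92), Etv3, an ETS repressor (0.87), Adam17, a sheddase (0.86), and Icam1, an adhesion molecule (0.86). In monocyte-like cells Icam1 stood at 52.4, 40.9 and 16.8 CPM and Ttyh3 at 389, 293 and 205 CPM. Etv5 correlated with Dusp6 at 0.71, Spred1 at 0.53, Spred2 at 0.40, Spry2 at 0.18 and Spry1 at -0.04. The Sprouty genes thus followed Dusp6 least.

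Other members had neighbours of their own. The genes most like Dusp5 were Zbtb4 (0.91), Pecam1 (0.90), an adhesion molecule of leukocytes and endothelium, and Abi3 (0.89). Spry2 was most like Emid1 (0.92), Tet1 (0.90), a DNA demethylating enzyme, and Il2rg (0.89), the common chain of interleukin receptors. Spry1 was most like Jcad (0.91), Ggact (0.91) and Slc11a2 (0.88), an iron transporter. Spred1 was most like Bst2 (0.95), Lgals3bp (0.94) and Tpp1 (0.93), a lysosomal protease, and Spred2 like Stk25 (0.95), Mical3 (0.94) and Sept8 (0.93). Etv5 was most like Mafk, Ubald1 and Slc45a3 (each 0.90).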

How the data were processed

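Viable CD45-positive liver cells of newborn mice were profiled by probe capture in 3 libraries, 1 per genotype. Per the submitters' processing notes, the authors used Cell Ranger 7.0.0 with mm10. The deposited matrices hold raw UMI counts for 19059 genes in every barcode. Aligner settings and barcode filters were not given in the sources used here. Probes cover part of a transcript, so levels were not compared between genes.

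Median depths were 8218.5, 15558.5 and 19348 UMIs per barcode (labelled WT, labelled Het, KO). A minimum of 200 genes removed 0 barcodes. Scrublet in scanpy 1.11.5 called 273, 186 and 298 doublets, which were left out (9327, 7814 and 7947 cells kept). Libraries were clustered together without batch correction, on 2000 variable genes without the 8 genes, the pathway lists, Pex2 and sex-linked genes, with 40 principal components, 20 neighbours and Leiden resolution 1.0 (leidenalg 0.10.2). A cluster took a class name with at least 3 of its markers detected (2-fold with 10 CPM added, a UMI in 20% of cells) and no other class had more markers among the top 10 genes. Ly6c2, Cx3cr1 and Vpreb2 were not analysed here. Rebuilt names may differ from those of the authors.

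UMIs were summed per library and class. Intervals are exact Poisson (CPM), conditional binomial (ratios) and Clopper-Pearson (shares) at 95%, and log2 ratios have 0.5 counts added. With 1 library per genotype no test was made. For shares, each cell was thinned to 3000 UMIs, and 766, 290 and 323 cells below that depth were dropped. Alternative scalings were TMM (edgeR 4.0.16) and median of ratios (DESeq2 1.42.0, R 4.3.3). The call rule was run on simulated Poisson counts from a pooled monocyte-like profile, with no variation between libraries. That run cannot show how the rule behaves between single libraries. Python 3.11.15, numpy 2.4.6, pandas 2.3.3 and scipy 1.17.1 were used.

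The 8 genes and all lists were chosen with earlier results of these data known. Named were all 8 genes in every class, at most 4 called genes per list and direction by the smaller log2 ratio, and the 5 (Dusp6) or 3 genes most like a member with at least 50 CPM in a sum. Not analysed here were Crkl, Ccnb1 and the Rps6ka genes of the lists.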

Additional observations from a re-analysis of the deposited data

Results flagged for a closer look

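Dusp6 and Etv5 had lower levels in KO than in both control libraries in monocyte-like cells and higher levels in B-lineage-like cells, where neither was called. This difference between classes was not tested, and the Dusp6 values in monocytes are those that chose the genes. Against labelled WT, the log2 ratio of Dusp6 in KO was lower in monocyte-like than in B-lineage-like cells by a difference of -3.08, and against labelled Het by -3.31. For Etv5 the corresponding differences were -3.0 and -3.15. In the shared B-lineage cluster 10 the KO level of Dusp6 was not above those of the control libraries, and in monocyte-like cluster 15 Etv5 was not lower in KO, so the sizes of these differences rest on which clusters make up each class.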

How the results depend on the processing

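No paired analysis was possible because each genotype has 1 library, and no library could be left out. The main log2 ratio of Dusp6 in monocyte-like cells was -2.83 (labelled WT) and -2.86 (labelled Het). It was -2.70 and -2.74 under TMM scaling, -2.72 and -2.78 under median-of-ratios scaling, -3.06 and -3.01 with each cell weighted the same, and -2.99 and -3.01 with classes from a marker score per cell. Against labelled WT it was -3.01 in non-dividing cells, which in KO lay mostly outside cluster 15. Chosen after seeing the data, cluster 15 alone gave -1.83 and -1.54, and the class without it -2.27 and -2.31. The number of the 8 genes called lower was 4, 5 with no level filter (Spry1 added) and 1 in cluster 15 alone. There the log2 ratios of Spred2 turned to 1.65 and 0.98, those of Etv5, within counting error, to 0.68 and 0.53, and that of Dusp5 against labelled Het to 0.23, and the KO cells of that cluster number 34. Genes called lower numbered 861, 1533 in non-dividing cells, 1429 with no level filter and 307 with a 2-fold rule. Of 346 other values under alternatives 277 kept within their interval and 64 moved beyond it. A reversal of sign was counted only for the 118 values of genes called in the main results. Of these 5 reversed, which are those of cluster 15 above. Changes of sign in genes not called were not counted as reversals. In other classes, a marker score per cell added Dusp6 and Dusp5 to the genes lower in KO in basophil and mast-like cells, and Etv5 in neutrophil-like cells. In macrophage-like cells a finer clustering added Spry2 and Etv5, and the marker score added Etv5 and lost Dusp4. Depth limits Dusp4 in monocyte-like cells, with few UMIs, while Spry1 and Spry2 there passed the UMI minimum and missed the level of 10 CPM.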
